A study of Sus scrofa with 28 samples.

Results

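The genes described here encode contractile proteins of slow muscle fibres, namely the myosin heavy chain MYH7, the myosin light chain MYL2, the troponin T subunit TNNT1 and the troponin I subunit TNNI1. Their members are the spotted cDNA probes to which the platform annotation gives exactly 1 gene symbol equal to 1 of these 4 names. There are 16 such probes among the 4608 on the array, of which 509 carry a single symbol and stand for 211 genes. MYH7 and MYL2 (gene identifiers 396860 and 396690) have 5 probes each, and TNNT1 and TNNI1 (396579 and 396947) have 3 each. None of the 16 was left out by a filter in the main comparison.

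RNA was taken from the semimembranosus, which is a ham muscle, of pigs sorted by the lightness (L*) of their meat. The normal group was 7 pigs with low L*, and the destructured group was 7 pigs with high L*, a defect in which the meat loses its structure. The labels give no age, breed, treatment or L* value for the animals. Each pig's RNA was copied into radioactively labelled cDNA and hybridised to 1 nylon array that carries every probe in a left and a right part. The values are spot intensities, given here as log2 after quantile normalization with both parts averaged per pig, so the pig is the replicate and the number of arrays limits the precision. In the labels the pig number of normal replicate 2 recurs as that of destructured replicate 3, and nothing says whether this is 1 animal.

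Slow fibres contract slowly, resist fatigue and draw mainly on oxidative metabolism, and they are told from fast fibres by their own set of sarcomere proteins. In the thick filament, MYH7 is the motor that hydrolyses ATP and MYL2 is the regulatory light chain bound to its neck. Both are also the main forms in the heart ventricle. On the thin filament, TNNT1 anchors the troponin complex to tropomyosin and TNNI1 holds back the contact of actin and myosin until calcium binds. The semimembranosus is a mixed muscle in which fast fibres predominate. In RNA from whole muscle, fewer slow fibres and less slow fibre RNA per fibre cannot be told apart.

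The right part of 1 array stood apart. Over all probes the left and right parts correlated at 0.380 in normal replicate 3 and at 0.868 to 0.963 in the other pigs. The slow fibre probes showed this too. For the MYL2 probe 4914 the left part of that array read 2.92 and the right part 6.29. For the MYH7 probe 4610 the readings were -0.32 and 2.52, and for the MYH7 probe 4799 they were 2.91 and 0.61. In that pig the right part exceeded the left by more than 1 log2 unit for 4 of the 16 probes and lay below it by as much for 2. Probes whose differences moved with this pig are also given with its right part or the whole pig left out. Arrays of destructured pigs were also brighter on average as deposited, with array medians of 1.52 ± 0.161 against 1.31 ± 0.306 on the log2 scale (mean ± SD, n = 7 each). The groups overlapped, with the brightest array that of normal replicate 1 (1.82) and the dimmest that of normal replicate 4 (0.87). This difference was not tested.

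**Figure D1:**
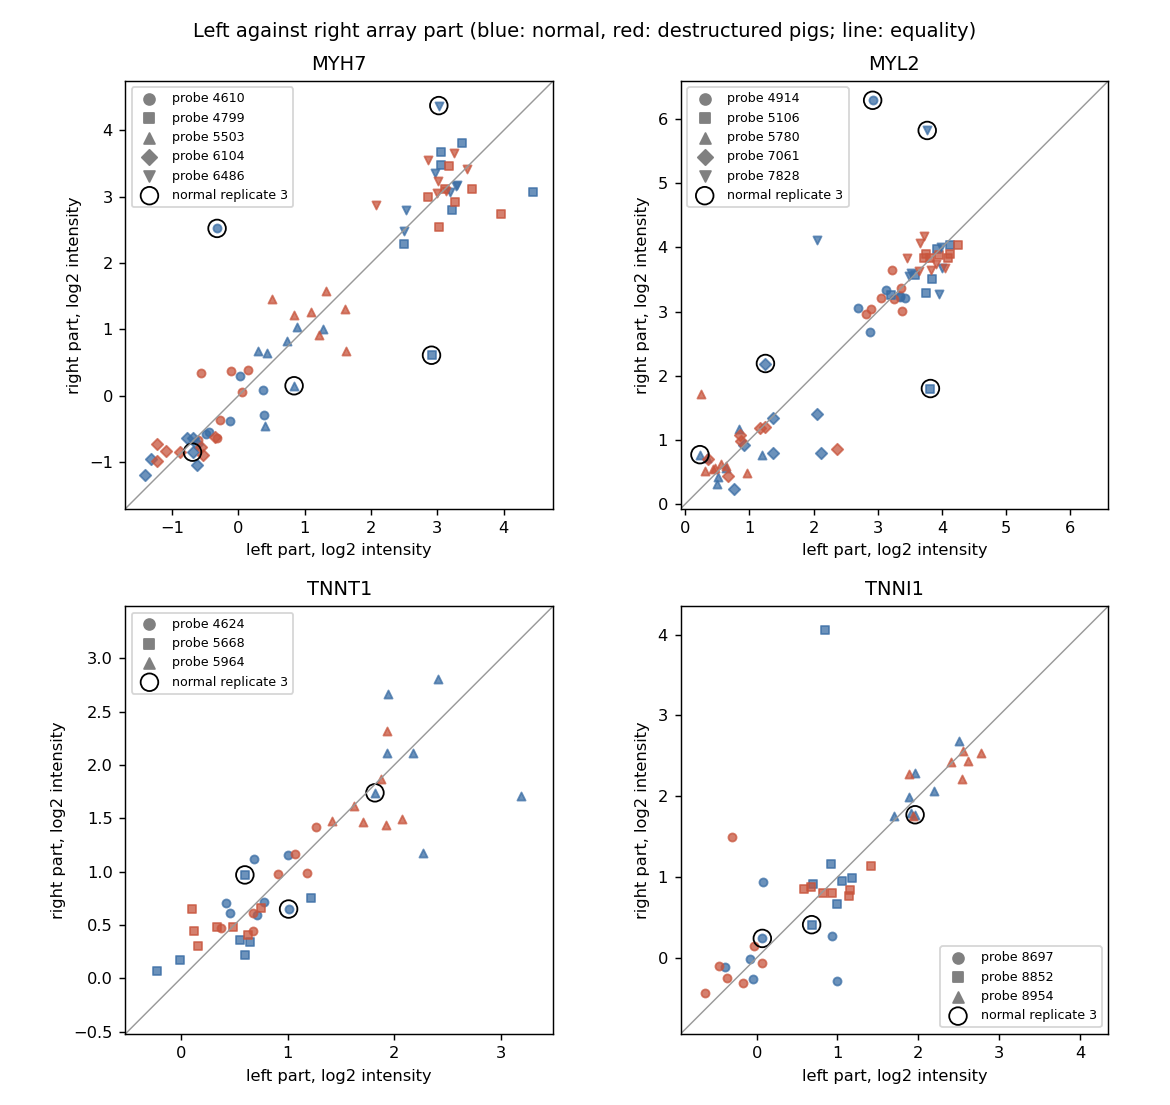
Each point is 1 slow fibre probe in 1 pig, with the log2 intensity of the left array part on the horizontal axis and of the right part on the vertical axis, in 4 panels by gene; blue points are normal and red points destructured pigs, the marker gives the probe, the line marks equality and open circles mark normal replicate 3. In the MYL2 and MYH7 panels the point farthest from the line is circled. For MYL2 it is probe 4914, at 2.92 on the left and 6.29 on the right. Other circled points lie closer to the line, and some points of other pigs lie off it too.

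The question of the main comparison was whether slow fibre transcripts differ between destructured and normal muscle. None of the 16 slow fibre probes passed limma's test at an adjusted p of 0.05 (Benjamini-Hochberg over all 4608 probes), where 0.651% of all probes did. An unadjusted p under 0.05 was reached by 3 of the 16, MYH7 probe 5503, MYL2 probe 5106 and TNNT1 probe 5964, against 13.0% of all probes. Of these 3 the MYH7 and MYL2 probes had higher values in destructured pigs, as did 8.40% of all probes at that p, and the TNNT1 probe lower ones, as did 4.64%. Destructured minus normal was positive for 8 probes and negative for 8, and the median log2 fold change was -0.0036. Over all probes 46.3% were positive with a median of -0.021. The groups overlapped for each of the 16 probes, while 1.28% of all probes had groups that did not overlap.

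**Figure D2:**
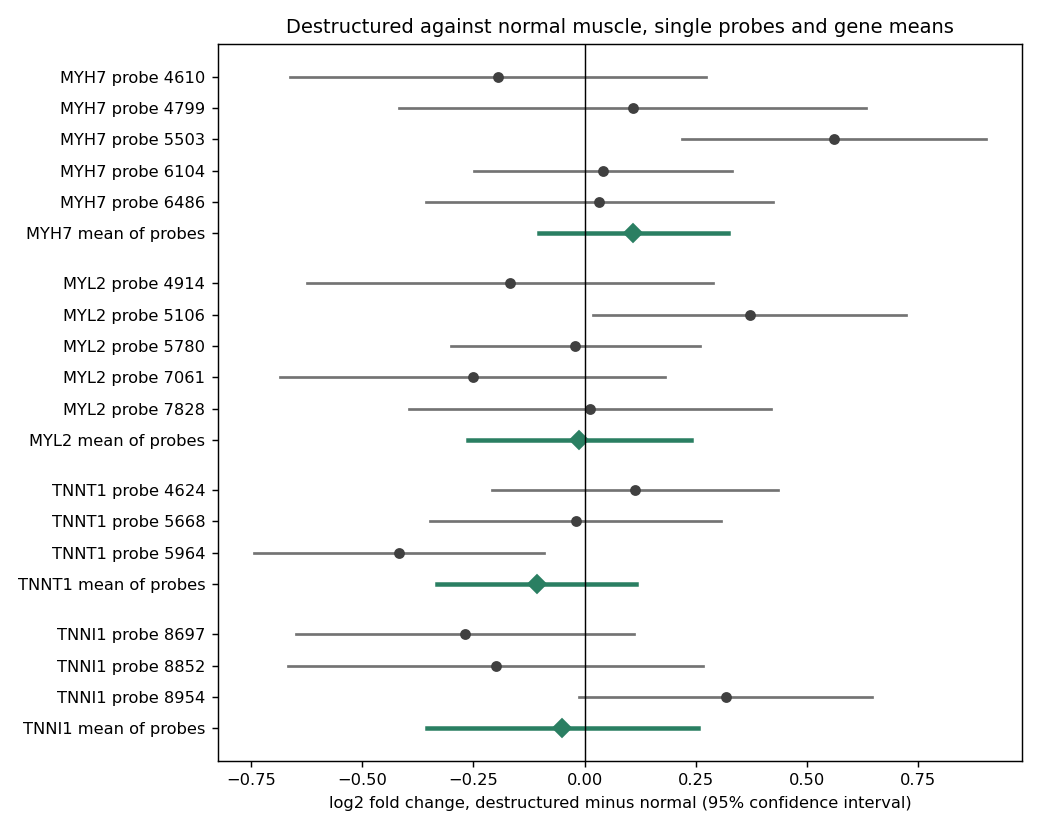
Log2 fold change of destructured minus normal muscle (horizontal axis) with its 95% confidence interval for each of the 16 slow fibre probes (grey circles) and for the mean over the probes of each gene (green diamonds). The intervals of MYH7 probe 5503, MYL2 probe 5106 and TNNT1 probe 5964 do not include 0, and those of all 4 gene means do.

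MYH7, the slow heavy chain, had the probe with the smallest p of the 16. For probe 5503 the lowest, median and highest normal pig stood at -0.032, 0.53 and 1.14 (log2 intensity, n = 7), and the lowest, median and highest destructured pig at 0.98, 1.15 and 1.46 (n = 7). All 7 destructured pigs lay above the normal mean and 4 of them above every normal pig, the overlap coming from normal replicate 1 at 1.14. The difference was 0.56 (SE 0.16, 1.48-fold, 95% confidence interval 0.22 to 0.90), and it did not pass (limma adjusted p = 0.111, rank 119 of 4608 by p). In deposited intensity, as the mean of both parts of a pig, normal pigs spanned 1.03 to 2.74 with a median of 1.40, and destructured pigs 2.11 to 3.46 with a median of 2.38.

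The left and right array parts gave differences of 0.47 (SE 0.19) and 0.66 (SE 0.23) for this MYH7 probe. Its difference stayed positive in all 27 alternatives, from 0.36 to 0.82, and passed in 1 of them, with array weights (limma adjusted p = 0.0334; 2.80% of all probes called there). Its adjusted p was 0.0932 with the right part of normal replicate 3 left out and 0.290 with position medians removed, and over the 27 alternatives it ranged from 0.0334 to 0.397.

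The other 4 MYH7 probes had smaller differences. The brightest, probe 6486, spanned 2.49 to 3.70 with a median of 3.16 in normal pigs and 2.47 to 3.45 with a median of 3.12 in destructured pigs, a difference of 0.033 (SE 0.19, limma adjusted p = 0.965). The groups overlapped, with 1 destructured pig just below all normal ones, and the highest normal pig was replicate 3. With the right part of that pig left out the difference was 0.13 (SE 0.16). Probe 4799 differed by 0.11 (SE 0.25), and its sign turned to -0.056 (SE 0.17) without that right part and to -0.10 (SE 0.18) without the pig. Probe 6104 differed by 0.042 (SE 0.14), and by 0.030 (SE 0.13) without that part. Probe 4610 differed by -0.19 (SE 0.22), and by 0.0083 (SE 0.16) once the right part of normal replicate 3 was left out; that pig read 1.10 and the other normal pigs 0.23 or less.

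Averaged over its 5 probes, MYH7 stood at 1.18 ± 0.113 in normal and 1.29 ± 0.103 in destructured pigs (mean log2 intensity ± SD, n = 7 each). The destructured pigs ranged from 1.15 to 1.42 and the normal pigs from 0.98 to 1.26, so that 4 destructured pigs lay above all normal ones. The difference of 0.11 (SE 0.10, 95% confidence interval -0.10 to 0.32) did not pass (limma adjusted p = 0.675), in a table of 4310 rows in which probes of a gene were averaged and 0.696% of rows were called. It was positive in all 29 alternatives, from 0.033 with the brightest probe alone to 0.44 with the median over its probes, and it was 0.33 (SE 0.15) on the deposited scale, where all probes had a median of 0.21. That median over its probes is taken per pig from probes of unlike brightness, so in most pigs it was the value of probe 5503 itself. Probe 5503 differed by 0.56 in the main comparison and the other MYH7 probes by -0.19 to 0.11. Without the dimmest 25% of probes the MYH7 mean differed by 0.23 (SE 0.12, limma adjusted p = 0.382).

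For MYL2, the regulatory light chain, probe 5106 had the smallest p. Its normal pigs stood at 2.81, 3.58 and 4.08 (lowest, median and highest log2 intensity, n = 7) and its destructured pigs at 3.78, 3.92 and 4.14 (n = 7). Normal pigs were spread over a range into which all destructured pigs but 1 fell, and the lowest normal pig was replicate 3. The difference was 0.37 (SE 0.17, 1.29-fold, 95% confidence interval 0.019 to 0.72; limma adjusted p = 0.354). It was 0.22 (SE 0.13) with the right part of normal replicate 3 left out, 0.12 (SE 0.15) with position medians removed and 0.0087 (SE 0.12) with both.

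The brightest MYL2 probe, 7828, stood at 3.09, 3.62 and 4.79 in normal and at 3.64, 3.82 and 3.95 in destructured pigs (lowest, median and highest log2 intensity, n = 7 each). The destructured pigs lay close together inside the normal range, whose top was again replicate 3. The difference was 0.013 (SE 0.19, limma adjusted p = 0.990), and 0.16 (SE 0.13) without the right part of that pig's array. The lowest normal pig, replicate 1, read 2.06 in the left and 4.12 in the right part. Without normal replicate 1 the difference of probe 7828 was -0.10 (SE 0.18). Probes 4914, 5780 and 7061 had differences of -0.17 (SE 0.22), -0.021 (SE 0.13) and -0.25 (SE 0.21). For probe 4914 normal replicate 3 read 4.60 and the other normal pigs 2.78 to 3.31, and without its right part the difference was 0.071 (SE 0.12). Probes 5780 and 7061 then stood at 0.017 (SE 0.13) and -0.18 (SE 0.19).

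Over its 5 probes MYL2 stood at 2.51 ± 0.244 in normal and 2.50 ± 0.0701 in destructured pigs (mean log2 intensity ± SD, n = 7 each). All 7 destructured pigs, from 2.39 to 2.60, lay within the normal range of 2.26 to 2.89. The difference was -0.011 (SE 0.12, 95% confidence interval -0.26 to 0.24; limma adjusted p = 0.984), and 0.057 (SE 0.099) with the right part of normal replicate 3 left out.

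For TNNT1, the tropomyosin-binding subunit, probe 5964 had the smallest p and was also the brightest, with lower values in destructured pigs. Its normal pigs stood at 1.73, 2.14 and 2.61 (lowest, median and highest log2 intensity, n = 7) and its destructured pigs at 1.45, 1.68 and 2.12 (n = 7). All 7 destructured pigs were below the normal mean and 4 of them below every normal pig. The difference was -0.42 (SE 0.16, 1.34-fold, 95% confidence interval -0.74 to -0.091), and it did not pass (limma adjusted p = 0.225). It was negative in all 27 alternatives, from -0.53 with array weights, where it passed (limma adjusted p = 0.0374), to -0.19 on the deposited scale. With position medians removed it was -0.23 (SE 0.12, limma adjusted p = 0.553), and the adjusted p over the 27 alternatives ranged from 0.0374 to 0.641.

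The other TNNT1 probes differed by 0.11 (SE 0.15, probe 4624) and -0.020 (SE 0.16, probe 5668). Averaged over the 3 probes, TNNT1 stood at 1.12 ± 0.0908 in normal and 1.01 ± 0.158 in destructured pigs (mean log2 intensity ± SD, n = 7 each). The destructured pigs spanned 0.77 to 1.22 and the normal pigs 0.97 to 1.26, with 2 destructured pigs below all normal ones. The difference was -0.11 (SE 0.11, 95% confidence interval -0.33 to 0.12; limma adjusted p = 0.702).

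For TNNI1, the inhibitory subunit, probe 8954 had both the smallest p and the highest intensity. Its normal pigs stood at 1.73, 1.94 and 2.59 (lowest, median and highest log2 intensity, n = 7) and its destructured pigs at 1.84, 2.41 and 2.66 (n = 7). The destructured pigs lay above the normal mean in 6 of 7 cases, but only 1 exceeded the highest normal pig. The difference was 0.32 (SE 0.16, 1.25-fold, 95% confidence interval -0.012 to 0.65; limma adjusted p = 0.403). It stayed positive in all 27 alternatives, from 0.24 to 0.54, and passed in none (adjusted p from 0.173 to 0.652).

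The other TNNI1 probes had the opposite sign, -0.27 (SE 0.18) for probe 8697 and -0.20 (SE 0.22) for probe 8852. In probe 8852 normal replicate 6 stood at 2.45, with 0.85 in the left and 4.05 in the right part, while the other normal pigs lay between 0.55 and 1.08. Without that pig the difference of probe 8852 was 0.024 (SE 0.13). Over the 3 probes TNNI1 stood at 1.10 ± 0.307 in normal and 1.05 ± 0.194 in destructured pigs (mean log2 intensity ± SD, n = 7 each). The normal pigs spanned 0.86 to 1.69, with replicate 6 at the top, and the destructured pigs 0.75 to 1.37, so the groups overlapped widely. The difference was -0.050 (SE 0.15, 95% confidence interval -0.36 to 0.25; limma adjusted p = 0.912), and 0.049 (SE 0.13) without normal replicate 6.

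**Figure D3:**
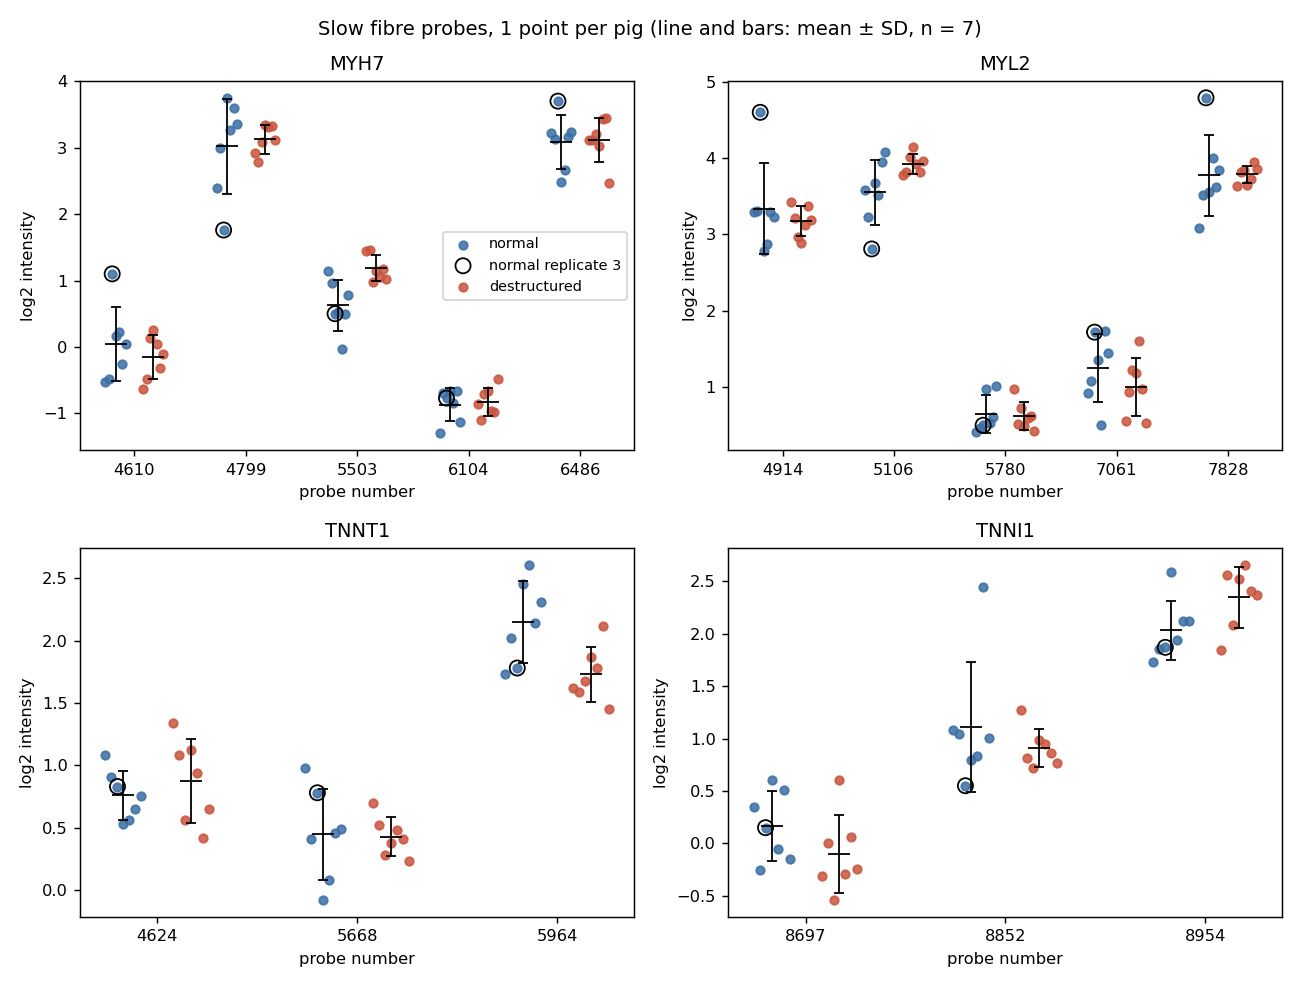
Log2 intensity (vertical axis) of each slow fibre probe (horizontal axis, by probe number) in 4 panels by gene, with 1 point per pig, blue for normal and red for destructured; horizontal marks and bars are the mean ± SD of 7 pigs and open circles mark normal replicate 3. The groups overlap for every probe, and MYH7 probe 5503 has all 7 destructured pigs above the normal mean.

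Probes listed for the same slow fibre gene thus gave different answers. Differences ran from -0.19 to 0.56 among the MYH7 probes, from -0.25 to 0.37 among those for MYL2, from -0.42 to 0.11 for TNNT1 and from -0.27 to 0.32 for TNNI1. Across the 14 pigs, as deviations from the group mean, the 26 pairs of probes that share a gene had a mean r of -0.042, with 13 positive and a range from -0.71 to 0.67. Pairs of different slow fibre genes had a mean r of 0.035 over 94 pairs, 51 of them positive. With position medians removed and with the right part of normal replicate 3 left out the means were 0.057 and 0.091. These correlations are descriptions, since all probes of a pig share 1 array. They do not show that probes of 1 gene followed each other more closely than probes of different genes, so each probe is taken as the probe listed for its gene. Whether the names of the platform annotation and the rows of values are correctly aligned could not be settled from the files, and this bears on every value given under a gene name. The annotation is also old and the clone sequences were not used here, so hybridisation to related myosin or troponin genes was not tested.

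Part of the spread lies within the array. Between the left and right spot of a pig, the SD of the slow fibre probes had a median of 0.411 on the log2 scale, and 0.304 without normal replicate 3 (0.385 and 0.302 over all probes). Across the 13 pigs without that replicate, left and right readings of a slow fibre probe correlated at a median r of 0.437, against 0.269 over all probes. The highest were TNNT1 probe 4624 (0.799), TNNI1 probe 8954 (0.794) and MYL2 probe 5106 (0.766). With normal replicate 3 kept, the MYL2 probe stood at 0.368. Both groups enter each r, so a difference between the groups can add to it. The lowest were MYL2 probe 7828 (-0.406), MYL2 probe 5780 (-0.113) and TNNI1 probe 8852 (-0.0869), whose differences between pigs were not repeated from 1 part to the other. MYH7 probe 5503 stood at 0.429 and TNNT1 probe 5964 at 0.159.

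Destructured pigs varied less among themselves. The SD between pigs was smaller in the destructured group for 13 of the 16 probes, with a median of 0.215 against 0.390 in normal pigs. Over all probes it was smaller for 74.0%, with medians of 0.237 and 0.352. With the right part of normal replicate 3 left out, it was smaller for 11 of 16 slow fibre probes and 60.9% of all probes, with medians of 0.214 against 0.301 for the slow fibre probes. Without normal replicate 3 altogether it was smaller for 13 of 16 (81.2%) and for 60.4% of all probes, with medians of 0.214 against 0.314 for the slow fibre probes. No test of this was made.

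The place of a probe in the deposited table moved with its fold change. The table runs in blocks of 72 positions, laid out as 6 rows by 12 columns. In columns 2 to 7, 64.3% of all probes had positive differences, and in the other columns 28.3%. This split describes the same fold changes and is not a test of them. Column 8, counted with the others, had a positive mean of 0.034, with 213 of its 384 probes positive. MYH7 probe 6104, MYL2 probe 5780 and TNNI1 probe 8852 lie in that column. Of the slow fibre probes 10 lie in columns 2 to 7, 6 of them positive, and 6 lie in the others, 2 of them positive. The MYH7 probe 5503 lies in column 7, which has the highest column mean (0.19), and the TNNT1 probe 5964 lies in column 12, with a mean of -0.16. With position medians removed 5 slow fibre probes were positive and 11 negative, with a median of -0.096 (all probes -0.0077), and the MYH7 probe stood at 0.46 (SE 0.17). Median centring left 8 positive and 8 negative. On the deposited scale 14 were positive and 2 negative, with a median of 0.23 beside 0.21 for all probes, so relative to all probes the slow fibre probes lay near the middle.

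**Figure D4:**
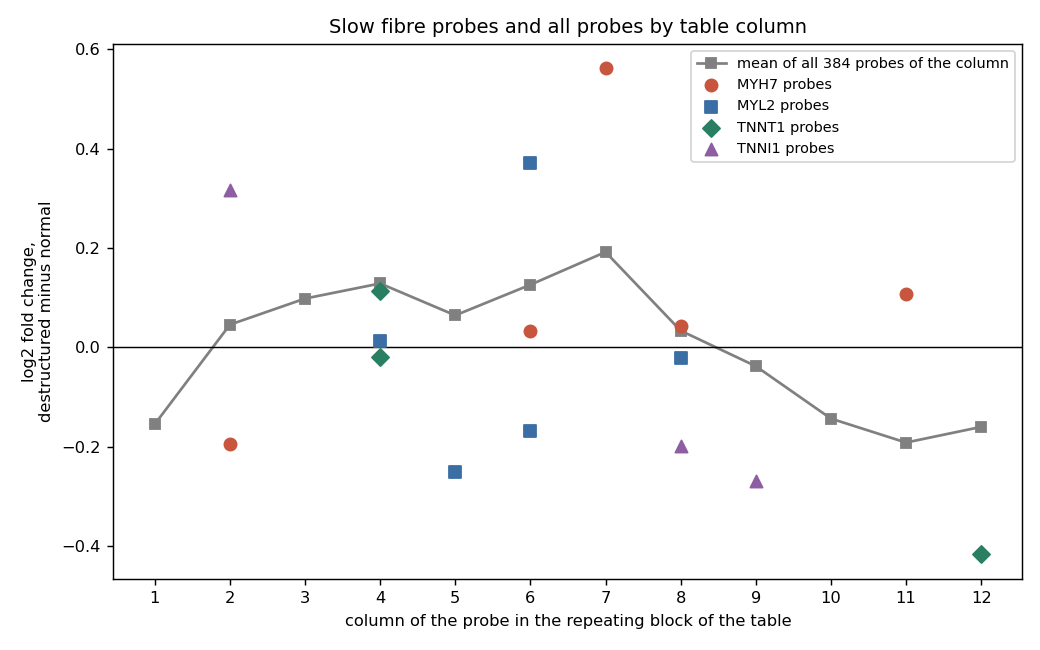
Log2 fold change of destructured minus normal muscle (vertical axis) against the column of the probe in the repeating block of the table (horizontal axis, 1 to 12); grey squares joined by a line are means over all 384 probes of a column and coloured markers are the slow fibre probes by gene. The column mean is 0.19 in column 7, where MYH7 probe 5503 lies at 0.56, and -0.16 in column 12, where TNNT1 probe 5964 lies at -0.42.

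**Figure D5:**
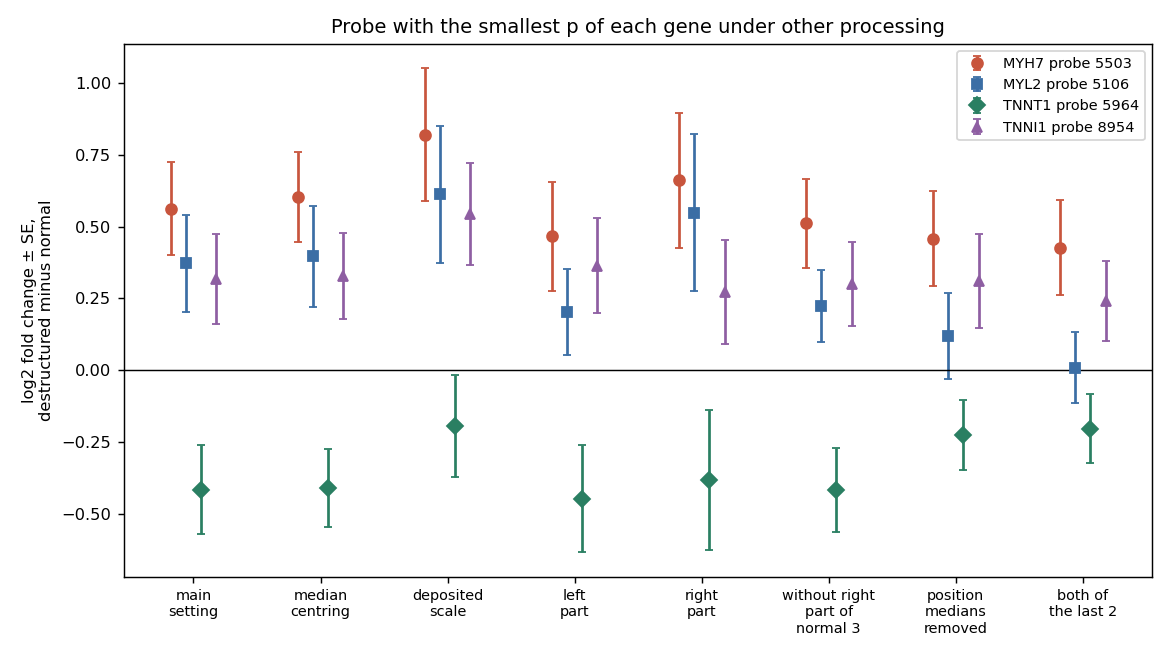
Log2 fold change ± SE of destructured minus normal muscle (vertical axis) for the probe with the smallest p of each gene, under the main processing and 7 alternatives (horizontal axis). MYH7 probe 5503 stays between 0.43 and 0.82 and TNNI1 probe 8954 between 0.24 and 0.54, while MYL2 probe 5106 reaches 0.0087 with position medians removed and with the right part of normal replicate 3 left out.

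Few other genes of the slow fibre programme carry a name on this array. Of 15 listed, 2 were measured, each by 1 probe, and neither passed. ATP2A2, the calcium pump of slow muscle and heart, differed by 0.0056 (SE 0.20), and TPM3, the slow tropomyosin, by -0.15 (SE 0.12). Of 13 fast counterparts 7 were measured with 91 probes, 36 positive (39.6%) and 55 negative, with a median of -0.067. Over all probes 46.3% were positive with a median of -0.021, and over single-symbol probes 40.9% with a median of -0.052. None of the 91 passed, where 0.651% of all probes did. Averaged over probes, the fast heavy chain MYH2 differed by 0.28 (SE 0.14, limma adjusted p = 0.399), and TNNI2, which encodes fast troponin I, by 0.035 (SE 0.11). The other 5 fast genes had negative means, with the heavy chain MYH1 at -0.020 (SE 0.10), the light chains MYL1 at -0.10 (SE 0.15) and MYLPF at -0.056 (SE 0.099), and the troponin genes TNNC2 at -0.071 (SE 0.095) and TNNT3 at -0.084 (SE 0.11).

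Of the skeletal muscle markers listed, 7 of 11 were measured, and none of their 91 probes passed, where 0.651% of all probes did. Most of these probes are those of MYH1, MYH2, MYLPF, TNNI2 and TNNT3, already counted among the fast counterparts. The summed level of the skeletal muscle markers spanned 4.70 to 4.87 in normal and 4.76 to 4.95 in destructured pigs (log2 of the summed intensity of gene means). That of the 4 slow fibre genes spanned 3.45 to 3.81 and 3.49 to 3.70. The heart markers NPPA and TNNI3, 2 of 6 listed, summed to 0.75 to 1.38 in normal and 0.60 to 1.15 in destructured pigs. The adipocyte markers FABP4 and PPARG, 2 of 5, spanned 3.00 to 3.90 and 3.74 to 3.96. The matrix genes FN1 and MGP, 2 of 6, spanned 3.51 to 4.77 and 2.98 to 4.08. The endothelial marker PECAM1, 1 of 3, spanned -0.53 to 0.11 and -0.29 to 0.19, and the immune marker CD74, 1 of 3, spanned 1.54 to 2.15 and 1.56 to 2.29. No gene of the smooth muscle, blood and nerve lists was measured. None of these marker genes passed as a gene mean, and their part in the slow fibre values was not tested.

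As a description over the 14 pigs, the gene means most like each slow fibre gene were sought among the other 210 named genes. For MYH7 they were PNPLA2, a triglyceride lipase (r = 0.706), LGALS1, a galectin (0.700), and B2M, the light chain of class I histocompatibility molecules (0.617). The slow light chain MYL2 came next (r = 0.567, with 0.779 among normal and 0.599 among destructured pigs). For MYL2 they were the ribosomal gene RPS28 (0.862), LGALS1 (0.780) and the chemokine CXCL12 (0.748), with MYH7 at rank 17. Among normal and destructured pigs r was 0.904 and 0.692 for RPS28, 0.891 and 0.784 for LGALS1, and 0.837 and 0.363 for CXCL12. Normal replicate 3, with the highest MYL2 mean (2.89), enters the r of all pigs and of normal pigs. No r without it was computed. For TNNT1 they were ACADS of fatty acid oxidation (0.713), the RNA polymerase subunit POLR2B (0.683) and NPPA (0.663). For TNNI1 they were RPL12 of the large ribosomal subunit (0.630), LC8 (0.569) and the fast troponin I gene TNNI2 (0.546). Their r among normal and destructured pigs was 0.811 and 0.442 for RPL12, 0.386 and 0.945 for LC8, and 0.558 and 0.611 for TNNI2. Between the slow troponin genes r was 0.102, and TNNT1 correlated with MYH7 at -0.333 and with MYL2 at 0.0191. All of these neighbours except TNNI2, with 7 probes, and the slow fibre genes themselves rest on 1 or 2 probes, and all values of a pig share its array.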

How the data were processed

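Muscle RNA of 14 pigs (7 normal, 7 destructured) was measured on nylon cDNA arrays, in 28 columns of 4608 probes with 0 missing values. The deposited values are linear spot intensities. Per the labels' protocols, phosphor images were quantified with BZscan at a fixed spot diameter; background correction and scaling are not given in the sources used here. All 28 columns were mapped to pigs and parts by the labels.

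Intensities were taken to log2 and quantile normalized, and both parts were averaged per pig. Limma (3.58.1, R 4.3.3; lmFit and eBayes) compared the groups without covariates or filter, with Benjamini-Hochberg adjustment over all probes at 0.05. Gene means averaged the probes of a symbol in the same fit. The fit was tested on simulated data. The members, lists and alternatives were chosen with earlier results of these data known. Of each gene, the probe with the smallest p, the brightest probe and the 3 most alike genes were named by rule; the other probes are given in brief. All 4 gene identifiers were found with the same symbol in the RefSeq table of Sscrofa11.1. Alternatives covered scaling, the log offset, a filter on dim probes, array parts, table position, variance model, array weights and left-out pigs. Nothing says the pigs were otherwise matched. The p-values set each difference against the spread between the values of pigs, part of which lies within the array. Figures used matplotlib 3.10.9 in Python 3.11.15.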

Additional observations from a re-analysis of the deposited data

Results flagged for a closer look

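In a group of 7 pigs, the highest or lowest value was marked when the distance to its neighbour took up most of the spread of the group. This was met by 3 of 42 groups of values examined, in 2 animals, where chance gives about 1 in 20. For the MYL2 probe 4914, normal replicate 3 stood at 4.60 with the next pig at 3.31. In the same animal the correlation of left and right array parts over all probes was 0.380, with the next normal pig at 0.868. For the TNNI1 probe 8852, normal replicate 6 stood at 2.45 with the next pig at 1.08, its left part reading 0.85 and its right part 4.05.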

How the results depend on the processing

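Of the 16 slow fibre probes, 0 were called in the main comparison and in 26 of 27 alternatives, and 2 with array weights. Of all probes, 0.651% were called in the main comparison and 2.80% with array weights. Over the alternatives this share ran from 0.0217% with the right part only to 2.93% without the right part of normal replicate 3. Where few probes of the array were called at all, 0 of 16 says little about the slow fibre probes. A fit on all 28 columns, with the array part as a covariate and the pig as a block, changed no call of a slow fibre probe. For MYH7 probe 5503 it gave 0.56 (limma adjusted p = 0.0598), in a fit that called 2.32% of all probes. The correlation it set between the 2 parts of a pig was only 0.14, so the parts counted nearly as separate samples. The MYH7 mean kept its sign in all 29 alternatives. The MYL2 mean changed sign on the deposited scale (0.20), from the left part (0.0073), with array weights (0.026), without the right part of normal replicate 3 (0.057), with the brightest probe (0.013) and with the median over probes (0.13). Leaving out 1 pig at a time gave -0.053 to 0.050. The TNNT1 mean did so on the deposited scale (0.15) and with the median (0.11), and ranged from -0.14 to -0.069 with 1 pig left out. The median over probes is taken per pig from log2 levels, so it follows probes of middle brightness. For TNNT1 it was the value of probe 4624 alone. The TNNI1 mean changed sign on the deposited scale (0.22), with median centring (0.0071), without the dimmest 25% of probes (0.059) and with the brightest probe (0.32), and ranged from -0.10 to 0.049 with 1 pig left out. The brightest MYH7 probe, 6486, changed sign with median centring (-0.074), from the left part (-0.0037) and with position medians removed (-0.052), and ranged from -0.067 to 0.14 with 1 pig left out. The brightest MYL2 probe, 7828, did so with median centring (-0.012), from the right part (-0.19), without the pigs that share a number (-0.040) and with position medians removed (-0.12), and ranged from -0.10 to 0.18 with 1 pig left out. None of these means or brightest probes of MYH7 and MYL2 passed in any alternative, and the cause of the changes was not tested. The filter on dim probes left 11 of the 16, without MYH7 probes 4610 and 6104, MYL2 probe 5780, TNNT1 probe 5668 and TNNI1 probe 8697. Signal over background is not given, so what it limits could not be told.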
